A study of Drosophila melanogaster with 88 samples.

Results

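The 35 glutathione S-transferase (GST) genes of the fly are described here by class, in male heads, female heads and female guts. They are followed with age, with the P58S form of the VAP protein, and across arms labelled for the transcription factor kayak. They are the gene rows of the male count table whose symbol is Gst followed by a class letter (D, E, O, S, T or Z) and a number, 35 of 17830 gene rows. The classes are delta (11 genes), epsilon (14), omega (3), sigma (1), theta (4) and zeta (2). All 35 were found by gene identifier in both female tables. The omega gene sepia (se) and other glutathione-linked enzymes without such a symbol are not members.

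GSTs join the tripeptide glutathione to reactive or foreign molecules, which makes these more soluble and ready for export, and some also act as peroxidases, isomerases or carriers. The delta and epsilon classes are the expanded insect classes, best known for insecticide resistance and for the clearance of lipid aldehydes, while omega enzymes reduce dehydroascorbate and mixed disulfides and zeta enzymes act in tyrosine breakdown. Many fly GST genes, GstD1 above all, are used as readouts of the oxidative stress pathway of cap-n-collar (cnc) and its inhibitor Keap1.

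The study profiled polyadenylated RNA of Drosophila melanogaster by sequencing of transcript 3′ ends, in 88 libraries that form 22 groups of 4. VAPP58S flies carry the P58S form of VAP (the fly Vap33 gene, an endoplasmic reticulum membrane contact protein whose human counterpart is mutated in a familial form of amyotrophic lateral sclerosis) and are called P58S here, and VAPWT flies carry wild-type VAP and are called WT. Male heads of both were taken at days 5, 15 and 20, and female heads and female guts at days 5 and 20. In a second male head series at days 5 and 15 every fly carried P58S and the Repo driver, which is active in glia: VAPP58SRepo_KayKD (KayKD, kayak knocked down), VAPP58SRepo_KayWT (KayWT, wild-type kayak overexpressed), VAPP58SRepo_KaySCR (KaySCR, overexpression of what the series' design text names KayakSCR, without saying what it is) and VAPP58SRepo (Repo, the driver alone). kayak (kay) is the fly Fos, a subunit of the AP-1 transcription factor. The Repo libraries are shared by the comparisons of all 3 kayak arms, and the day 5 libraries of a genotype are shared by its age comparisons. The labels do not say whether the 4 libraries of a group come from separate crosses or extractions, so p-values are set by the library spread alone, which may be technical.

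Depth on genes was 2.48 to 16.5 M reads (M, 1000000) in the male heads of both VAP genotypes, 1.21 to 15 M in the kayak series, 0.201 to 6.82 M in female heads and 0.937 to 9.46 M in female guts. The WT day 5 female heads replicate 2 (0.201 M) and replicate 4 (0.386 M) were the shallowest, and 3 reads there stand for up to 15 counts per 1000000 reads (CPM), which limits every comparison that uses them. In male heads the same limit was at most 1.21 CPM, and these limits cover counting error only. Photoreceptor, neuron, glia and fat body markers were read in heads, and alphaTry, a gut trypsin, had a median of 32100 CPM in guts, against 336 CPM in male heads. Among ovary markers, Vm26Aa reached 1070 CPM in a gut library, and the summed level of the list was 124 to 3880 CPM over the guts; its part in the gut values was not tested. Vap33 itself averaged 745 CPM in P58S heads and 659 CPM in WT heads of day 5 males and was not called at any age (adjusted p = 0.19, 0.55 and 0.098 by day), and the point change is not visible in counts. Whole-head kay averaged 197 CPM in KayKD heads and 207 CPM in Repo heads at day 5 (log2 difference -0.06, adjusted p = 0.83 by edgeR). At that day it was higher in KaySCR (0.49, adjusted p = 0.014) and was not called in KayWT (0.14, adjusted p = 0.56). At day 15 it was called in no arm (-0.05 in KayKD, 0.02 in KayWT and 0.11 in KaySCR). With age, kay was higher at day 15 than at day 5 in Repo (0.37, adjusted p = 0.049 by edgeR) and KayKD heads (0.38, adjusted p = 0.046). It was not called with age in KayWT (0.25) or KaySCR (-0.02). The whole-head counts thus do not show the knockdown or the wild-type overexpression that the labels name. Since the driver is active in glia, a change confined to glia may not show in them. One library stood apart: male P58S day 5 replicate 3 had a summed hemocyte marker level of 463 CPM, against 183 to 197 CPM in the other 3 P58S libraries of that day, with 8794 against 4541 to 5303 CPM for glia and 8347 against 4708 to 5101 CPM for fat body. Its sum was the highest of the group in every marker list except enterocyte. Neuron markers, for example, summed to 5812 against 4729 to 4940 CPM, and photoreceptor markers to 32590 against 23719 to 29123 CPM. The enterocyte sum was the lowest, at 880 against 1676 to 2875 CPM. Values of P58S heads at day 5 without this library are given beside the GST results below.

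GST transcripts were dominated by a few genes of the delta and epsilon classes. In guts the leading genes were GstD1, GstE12 and GstO3, with 52.1% of GST reads. GstD1, GstE12 and GstE9 made up 56.9% in female heads and 57.4% in male heads, and 15 of the 35 genes were enough for 90% in both. Because 3′ libraries give about 1 read per transcript end whatever the length of the gene, CPM values of different genes can be set beside each other.

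By class, epsilon GSTs held 40% of GST reads in guts, 47.8% in female heads and 46.2% in male heads. Delta GSTs held 30.8% in guts, 31% in female heads and 33.2% in male heads. Omega GSTs took 18.2% in guts, against 9.03% in female heads and 6.64% in male heads, and zeta GSTs took 0.465% in guts, against 2.38% and 3.63%. In the kayak series the epsilon share was 53.7% and the delta share 23.9%, and GstE12 rather than GstD1 was the most abundant member.

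The most abundant delta gene was GstD1, with 505 to 945 CPM (median 641) over the 16 guts, 94.7 to 613 (median 397) over the 16 female heads, 343 to 603 (median 463) over the 24 male heads of both VAP genotypes and 167 to 349 (median 291) over the 32 heads of the kayak series. GstD9 was next in male heads, with a mean of 80.3 CPM, followed by GstD3 (22.3), GstD2 (16.8), GstD11 (8.1), GstD10 (5.51), GstD8 (2.82) and GstD5 (0.887). GstD4, GstD6 and GstD7 were too rare to test in any head table. They had at most 0.838, 1.33 and 1.13 CPM in a male head of the VAP genotypes, and 1.29, 0.598 and 1.42 CPM in a head of the kayak series. The delta class thus ran from 1 of the most abundant GSTs in the head to genes at the limit of detection.

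Among epsilon genes GstE12 had 238 to 407 CPM (median 324) in guts, 239 to 435 (median 323) in female heads, 268 to 485 (median 420) in male heads and 309 to 561 (median 442) in the kayak series. GstE9 followed with a mean of 161 CPM in male heads, then GstE6 (61.9), GstE3 (42), GstE1 (29.7), GstE4 (29.4), GstE2 (27.6), GstE5 (14.9), GstE14 (14.5), GstE8 (14), GstE7 (12.9), GstE11 (11.5) and GstE13 (5.81). GstE10 was not tested in heads, where no male library of the genotype series held more than 1.68 CPM. GstE14, also known as Noppera-bo, acts in the making of the moulting hormone ecdysone.

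In the smaller classes 1 gene led in every table except for zeta. GstO3 led the omega class, with medians of 293 CPM in guts, 75 in female heads, 63.4 in male heads and 52.9 in the kayak series. GstS1, the sigma gene, known for its activity on lipid aldehydes and its abundance in flight muscle, had medians of 47.5, 66.1, 85.3 and 133 CPM in the same order. GstT4 led the theta class with medians of 121, 51.1, 59.1 and 47.2 CPM. In the zeta class GstZ1 led in guts (median 9.61 CPM, against 0.916 CPM of GstZ2), and GstZ2 led in heads (medians of 33.9, 58.7 and 45.1 CPM). The remaining theta and omega genes, GstT1, GstT2, GstT3 and GstO1, averaged 11.4 to 14.3 CPM in male heads, and GstO2 averaged 47.4.

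**Figure D1:**
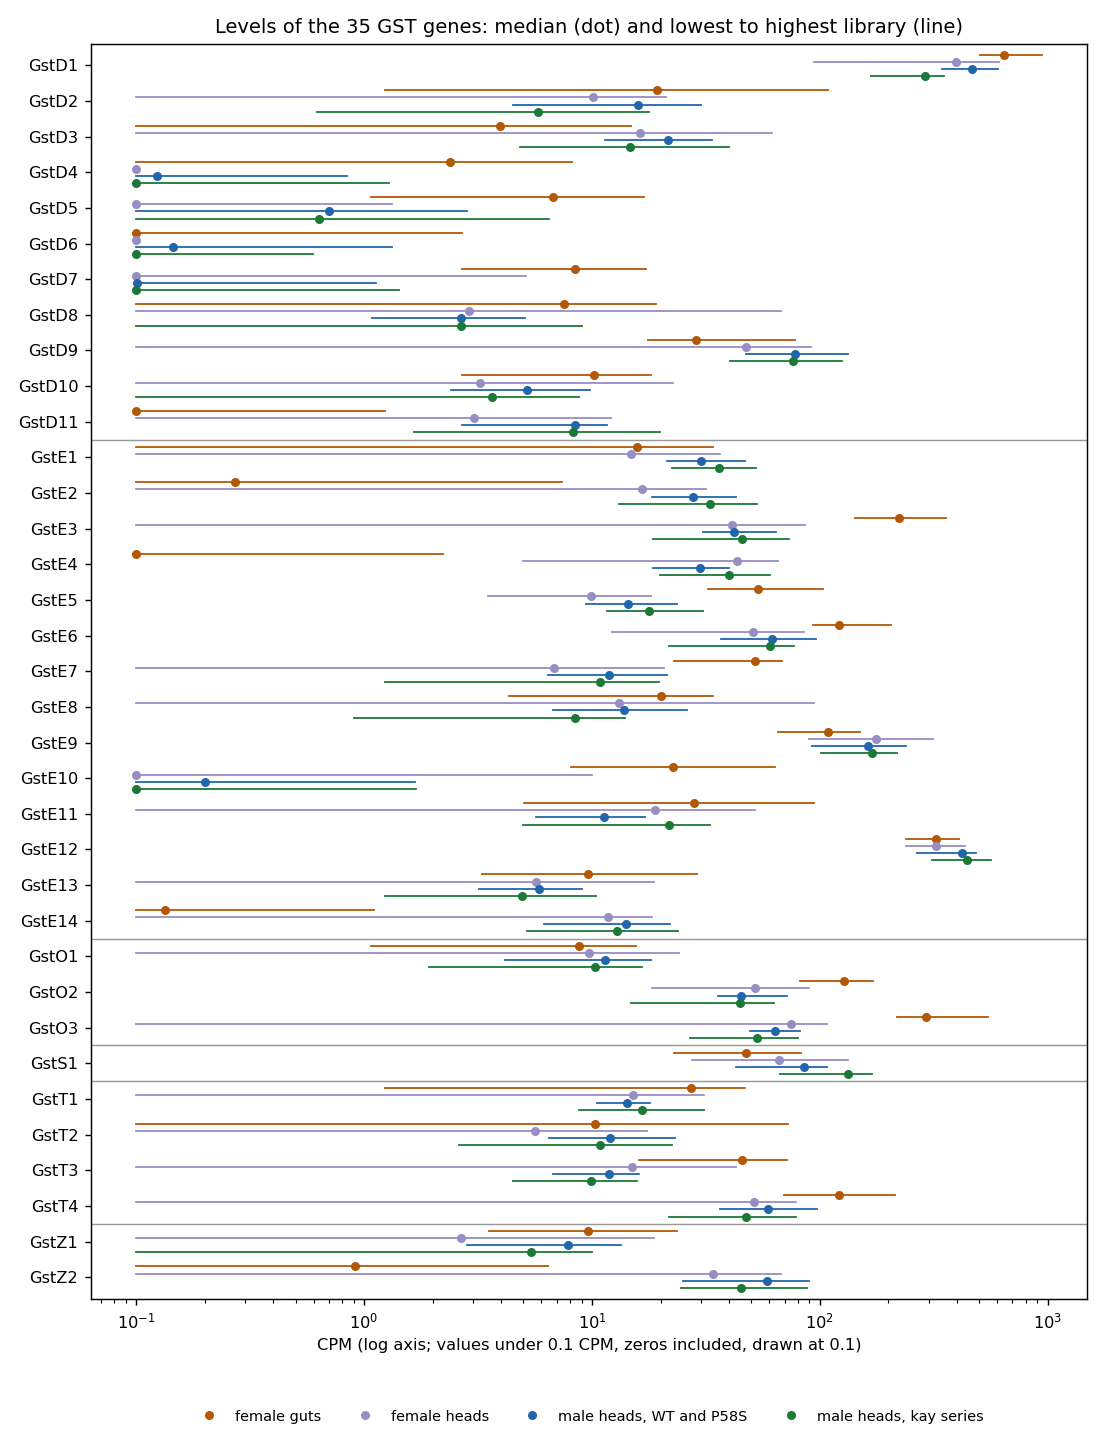
Level of each of the 35 GST genes in CPM (log axis, values under 0.1 drawn at 0.1) in female guts, female heads, male heads of the VAP genotypes and male heads of the kayak series; dots are medians over libraries and lines run from the lowest to the highest library. GstD1 and GstE12 lie highest in every table, and GstE4 and GstZ2 are far lower in guts than in heads.

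The GST genes lie in clusters, and the members of a cluster did not share 1 pattern. All 11 delta genes lie on chromosome arm 3R between 12364776 and 12385624 (dm6), in the order GstD10, GstD9, GstD1, GstD2 to GstD8 and GstD11. The first 10 epsilon genes lie side by side on arm 2R from 18396638 to 18409835, in the order GstE10, GstE1 and then GstE2 to GstE9, while GstE11 lies near them at 18503608 to 18505025 and GstE12, GstE13 and GstE14 lie elsewhere on 2R. The omega genes lie together on 3L (8518885 to 8524866), GstS1 (17093246 to 17099501), GstT1 and GstT2 on 2R, GstT4 (13404749 to 13409323) and GstT3 (20467455 to 20469796) on X, and both zeta genes on 3R (9455517 to 9460652). Members of a cluster are close paralogs, so the counting may have divided reads among copies, and values of single members are uncertain to that extent. GstE1 with GstE10, GstE9 with imd, GstE12 with CG3894, GstE13 with CG18659, GstO2 with se and GstT2 with CG12926 overlap on opposite strands, and since the strand setting of the counting is not stated, reads of such partners cannot be told apart.

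The female tables place gut and head levels side by side. They were normalized separately by the authors, so the levels are described without a test, with ranges over all 16 guts set against the 14 deeper heads. By that measure 5 members lay wholly above the head range in guts (GstE3, GstE5, GstE6, GstE7 and GstO3), 2 lay wholly below it (GstE4 and GstZ2), and 28 overlapped. Over the 13650 genes with a read in either female table the same rule placed 4.14% above the head range in guts and 9.71% below it, 13.8% in all.

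GstE3 and its neighbour GstE4, on the same strand, differed between guts and heads in opposite directions. GstE3 (2R 18400713 to 18401467) averaged 223 CPM in guts and 44 CPM in female heads, a ratio of 5.08. GstE4 (2R 18403248 to 18404086) averaged 0.358 CPM in guts, where all 16 libraries together held 43 reads, and 43.3 CPM in female heads. The highest gut library had 2.22 CPM of GstE4 and the lowest of the 14 deeper heads had 29.4.

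GstE7 had the highest ratio of the group above the head range, averaging 50.8 CPM in guts and 7.98 CPM in heads (ratio 6.36), followed by GstE5 with 59.4 and 10.3 CPM (5.77). GstO3 (3L 8518885 to 8520295) averaged 317 CPM in guts and 75.6 CPM in heads (4.19), and GstE6 averaged 123 and 52.1 CPM (2.36). GstZ2 (3R 9456815 to 9460652) averaged 1.72 CPM in guts and 31.7 CPM in heads, a ratio of 0.0541. GstE12, in contrast, averaged 324 CPM in guts and 318 CPM in heads.

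Several members were close to undetected in 1 of these tissues without meeting the range rule. GstE10 had 8.06 to 63.4 CPM in guts (mean 25.5) and a mean of 0.827 CPM in heads, GstD7 averaged 8.38 and 0.322 CPM, GstD5 7.35 and 0.171 CPM, and GstD4 3.02 CPM in guts with no read in any of the 16 heads. GstE2 averaged 0.812 CPM in guts and 15.2 CPM in heads, GstE14 0.267 and 9.87 CPM, and GstD11 0.16 and 3.91 CPM. Those 3 and GstE4 were too rare to test in guts. Summed over a class, guts had 3.21 times the head level of omega GSTs, 2.49 times that of theta, 1.58 times that of delta and 1.33 times that of epsilon GSTs, but 0.716 times that of GstS1 and 0.311 times that of zeta. In bulk tissue a lower share of the cells that make a transcript and less transcript per cell cannot be told apart. In guts the glia markers repo, alrm and wrapper each had a median of 0 CPM, while Gs2, a glia marker that guts also express, had 627 CPM.

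**Figure D2:**
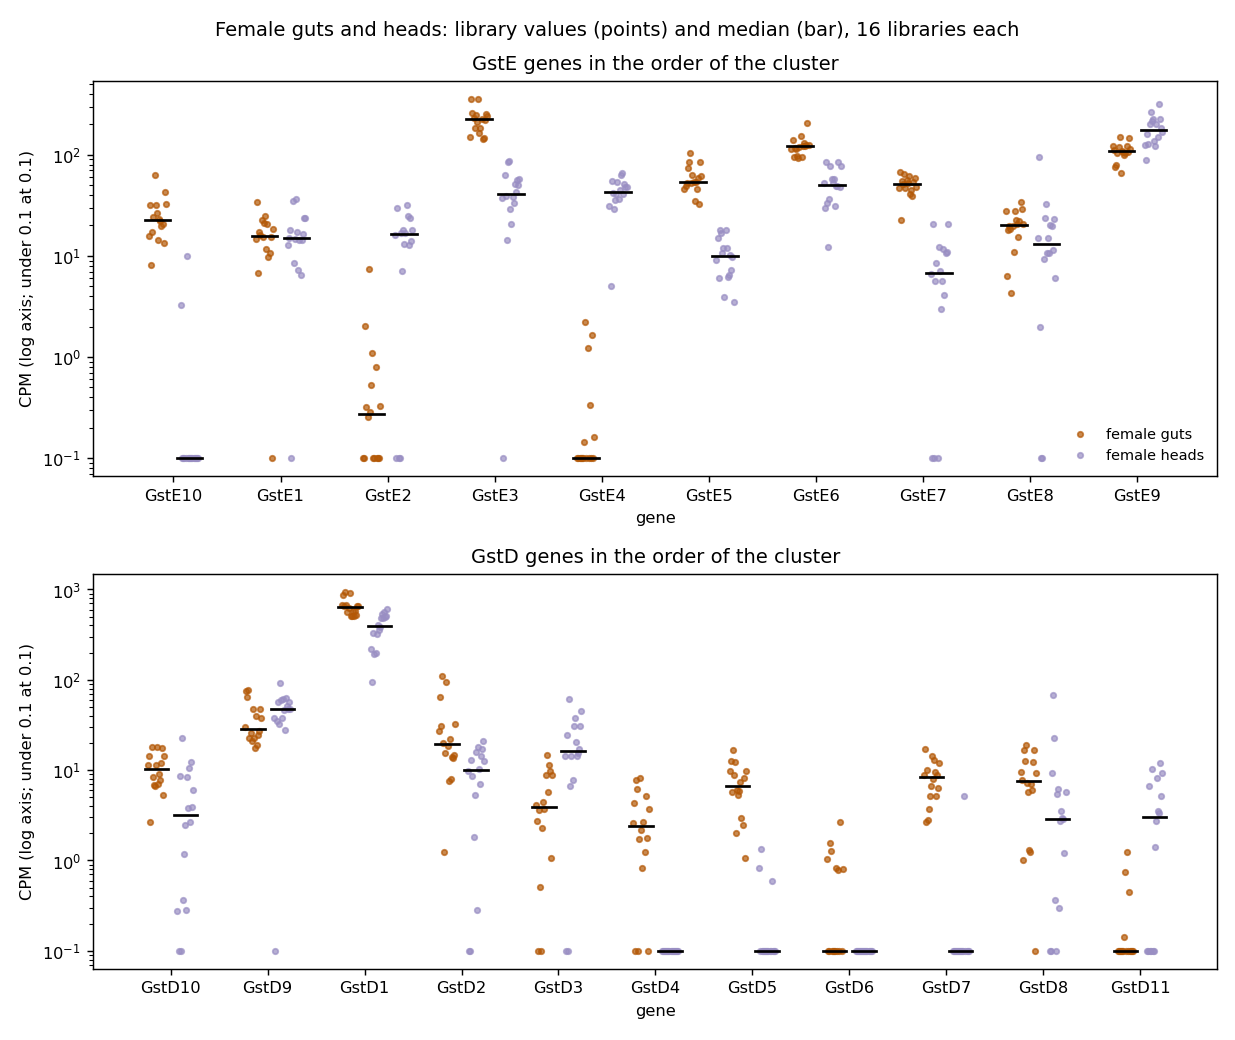
CPM in each female library (points) and group medians (bars) of the genes of the epsilon cluster on 2R (top) and the delta cluster on 3R (bottom), in chromosome order, with guts left of heads. Neighbouring genes differ: GstE3 is higher in guts and GstE4 is nearly absent there. Of these female libraries, GstE10, GstD4, GstD5 and GstD7 are read almost wholly in guts, and GstD6 is near the floor in both tissues.

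The question of whether P58S changes GST levels in the male head was asked at each age. 1 of 31 tested members was called at each age (edgeR quasi-likelihood test on counts, Benjamini-Hochberg adjusted over 9741 genes, called under 0.05), a different gene each time: GstE9 was lower at day 5, GstZ2 higher at day 15 and GstE6 lower at day 20. Among all tested genes 1.96% were called at day 5 (1.12% lower), 1.02% at day 15 (0.482% higher) and 1.76% at day 20 (0.893% lower), so a single call among 31 members is near the background. GSTs as a group did not move far: their summed level averaged 1620 ± 139 CPM in P58S heads and 1760 ± 87.3 in WT heads at day 5 (SD, n = 4 each; 1690 ± 56.7 in the 3 P58S heads other than replicate 3), 1880 ± 60.9 and 1750 ± 92.4 at day 15, and 1870 ± 77.3 and 2070 ± 145 at day 20.

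The epsilon gene GstE9 (2R 18409048 to 18409835) had 130, 124, 92.5 and 123 CPM in P58S heads at day 5, against 149, 154, 178 and 168 CPM in WT heads. The groups do not overlap, and the lowest value is that of the P58S replicate 3 that stands apart. The log2 fold change was -0.48 (SE 0.11, adjusted p = 0.023 by edgeR). Without P58S replicate 3 it was -0.37 with an adjusted p of 0.068, and without WT replicate 3 or WT replicate 4 the adjusted p was 0.0807 and 0.0815, so the call depends on each of these libraries. In P58S replicate 3 the sums of all marker lists but enterocyte were higher than in the rest of its group, and the enterocyte sum was lower. The part of cell makeup in the GstE9 value was not tested beyond leaving the library out. At day 15 GstE9 had 161, 168, 165 and 149 CPM in P58S heads and 165, 164, 138 and 122 CPM in WT heads, and at day 20 it had 179, 161, 162 and 178 CPM in P58S heads and 196, 206, 239 and 193 CPM in WT heads.

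The epsilon gene GstE6 (2R 18406011 to 18406761) had 55, 41.9, 53 and 52.1 CPM in P58S heads at day 20, against 79.7, 72, 96.5 and 59.8 CPM in WT heads. All P58S libraries lay below all WT libraries, and the log2 fold change was -0.57 (SE 0.13, adjusted p = 0.013 by edgeR). Leaving out WT replicate 3 gave an adjusted p of 0.10, and leaving out P58S replicate 2 gave 0.074. At day 5 the gene had 43.8, 36.7, 43 and 46.6 CPM in P58S heads and 62.2, 51.4, 51.1 and 63.5 CPM in WT heads, again with no overlap, but the test gave -0.44 with an adjusted p of 0.067 (0.11 without P58S replicate 3). At day 15, 65.3, 72.9, 70.2 and 61 CPM in P58S heads overlapped 82, 82.2, 80.6 and 63.4 CPM in WT heads.

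GstZ2, a zeta GST, had 89.9, 73.6, 88.5 and 72.5 CPM in P58S heads at day 15, against 59.6, 57.8, 35.6 and 25 CPM in WT heads. Every P58S library lay above every WT library, with a log2 fold change of 0.85 (SE 0.19, adjusted p = 0.021 by edgeR). The WT libraries were widely spread, and the adjusted p was 0.12 without WT replicate 3, 0.079 without WT replicate 4, 0.072 without P58S replicate 1 and 0.078 without P58S replicate 3. At day 20 the genotypes overlapped, with 68, 58.8, 68.5 and 56.4 CPM in P58S heads and 71.8, 58.6, 75 and 89.7 CPM in WT heads.

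The classes had small median differences between genotypes. The median log2 fold change of the 8 tested delta genes was 0.26 at day 5 and 0.42 at day 15, and -0.20 at day 20, beside all-gene medians of -0.0036, -0.0020 and -0.0035. All 8 were above 0 at day 15, and none passed the test. The 13 tested epsilon genes had medians of -0.26, -0.03 and -0.26 by day, with 2 of 13 above 0 at day 5 and 3 of 13 at day 20. Omega medians were -0.14, -0.11 and 0.05, theta medians -0.08, 0.09 and 0.19 and zeta medians 0.39, 0.43 and -0.04, and GstS1 stood at -0.39 at day 5 (adjusted p = 0.17). Without P58S day 5 replicate 3, which had 42.9 CPM of GstS1 against 79.7 to 85.6 CPM in the other 3, GstS1 stood at -0.195 (adjusted p = 0.40). Without that library the day 5 medians were 0.19 for delta, -0.28 for epsilon (14 genes then tested), -0.08 for omega, 0.01 for theta and 0.24 for zeta, and no member was called (1.54% of all genes called).

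GstD3 was the delta gene closest to a call at both later ages. It had 21.5, 25.8, 23.9 and 18.9 CPM in P58S heads at day 15, against 14.6, 11.4, 15.1 and 17.8 CPM in WT heads, groups that do not overlap (log2 0.64, adjusted p = 0.059 by edgeR). At day 20 it had 32.9, 33.6, 22.9 and 33.5 CPM in P58S heads and 23.8, 21.1, 18.6 and 21.5 CPM in WT heads, with overlap through P58S replicate 3 (log2 0.57, adjusted p = 0.076). Without that replicate the log2 fold change was 0.70 and the adjusted p 0.023. GstD10 had 5.86, 7.76, 6.02 and 9.08 CPM in P58S heads at day 15, against 3.11, 3.57, 2.4 and 2.83 CPM in WT heads (log2 1.32, adjusted p = 0.065). Both GstD3 and GstD10 were called at day 15 by DESeq2, a second count model. GstE14 (-0.59, adjusted p = 0.10, and -0.61 with 0.14 without P58S replicate 3) at day 5 and GstE3 (-0.44, adjusted p = 0.097) at day 20 were the other members with the smallest p.

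Whether the P58S effect itself changed with age was tested as an interaction, and no member was called. For day 15 minus day 5, 6 members had an unadjusted p under 0.05, led by GstE9 (difference of log2 fold changes 0.61, adjusted p = 0.21), GstD3 (0.78, adjusted p = 0.34) and GstT2 (0.84, adjusted p = 0.38), and DESeq2 called GstE9. For day 20 minus day 5, 7 members had an unadjusted p under 0.05, led by GstD3 (0.71, adjusted p = 0.26), GstE14 (0.81, adjusted p = 0.29) and GstD9 (-0.56, adjusted p = 0.34), and DESeq2 called 0. The share of all genes called was 0.103% and 0.205%, and the share with an unadjusted p under 0.05 was 7.5% and 10.6%. None was called either without P58S day 5 replicate 3. The day 15 values were then 0.50 for GstE9, 0.68 for GstD3 and 0.73 for GstT2 (adjusted p 0.235, 0.38 and 0.45). The day 20 values were 0.61 for GstD3, 0.82 for GstE14 and -0.38 for GstD9 (adjusted p 0.36, 0.325 and 0.53). The calls at single ages are therefore not shown to differ between ages.

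**Figure D3:**
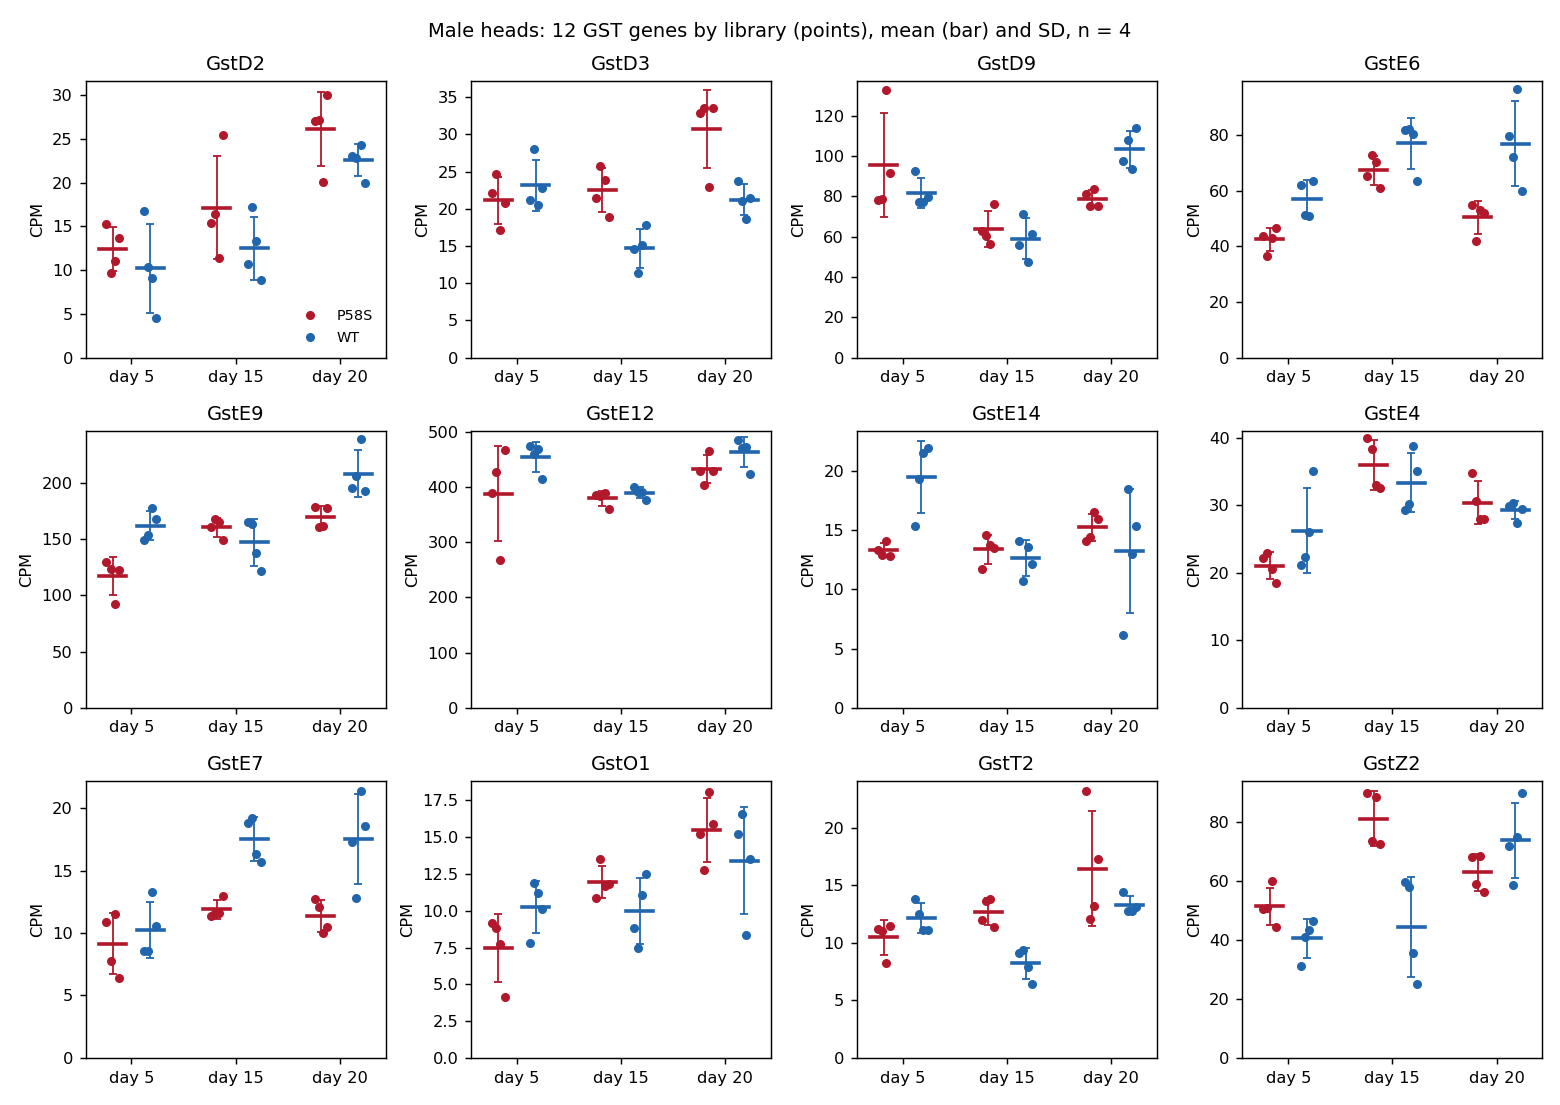
CPM of 12 GST genes in male heads at days 5, 15 and 20, with P58S left of WT at each day; points are libraries, bars mark the mean and error bars the SD (n = 4). GstE9 at day 5, GstE6 at day 20 and GstZ2 at day 15 show groups that do not overlap between genotypes.

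Age moved more members than genotype did. In P58S heads 4 of 31 members were called at day 15 against day 5 (3 higher, 1 lower, with 5.99% of all genes higher and 7.57% lower, 13.6% in all) and 6 at day 20 against day 5 (all higher, with 7.19% of all genes higher and 16% called). In WT heads 6 were called at day 15 (1 higher, 5 lower, with 5.08% of all genes higher and 7.3% lower, 12.4% in all) and 5 at day 20 (4 higher, 1 lower, with 5.07% higher and 5.51% lower, 10.6% in all). These counts are near the share of all genes that changed with age. The P58S counts without P58S day 5 replicate 3 were 5 of 32 at day 15 (17.5% of all genes called) and 4 of 32 at day 20 (15.8%). The median over all tested members was 0.12 and 0.22 at days 15 and 20 in P58S heads and -0.04 and 0.26 in WT heads.

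Among delta GSTs, GstD2 was higher at day 20 than at day 5 in both genotypes. In P58S heads it had 27.1, 27.2, 20.1 and 30 CPM at day 20, against 15.3, 9.65, 11.1 and 13.7 CPM at day 5 (log2 1.04, SE 0.27, adjusted p = 0.0088 by edgeR). In WT heads it had 23.1, 22.8, 24.3 and 20 CPM at day 20, against 16.8, 10.4, 9.08 and 4.48 CPM at day 5 (log2 1.17, SE 0.28, adjusted p = 0.0070). Neither pair of groups overlapped, and both calls held when any single library was left out.

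GstD9 was lowest at day 15 in both genotypes. It had 62.8, 60.2, 56.2 and 76.3 CPM in P58S heads at day 15, against 78.4, 78.8, 133 and 91.6 CPM at day 5, and fell by 0.72 on the log2 scale (SE 0.15, adjusted p = 0.0019). Without P58S day 5 replicate 3, which holds the value of 133 CPM, it still fell by 0.54 (adjusted p = 0.0058). In WT heads it had 55.9, 71.5, 47.3 and 61.3 CPM at day 15, against 92.8, 77, 77 and 79.7 CPM at day 5 (log2 -0.65, adjusted p = 0.0053). At day 20 it was back at 75.1 to 83.9 CPM in P58S heads and at 93.5 to 114 CPM in WT heads.

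GstD3 fell in WT heads at day 15, with 14.6, 11.4, 15.1 and 17.8 CPM, against 21.2, 28.1, 20.5 and 22.8 CPM at day 5 (log2 -0.86, SE 0.17, adjusted p = 0.0011), a call that every leave-one-out fit kept. In P58S heads it was called higher at day 20 than at day 5 (log2 0.48, adjusted p = 0.037), but leaving out any of 5 single libraries gave adjusted p values of 0.061 to 0.13, and without P58S day 5 replicate 3 it was 0.37 with an adjusted p of 0.11. The 5 were P58S day 5 replicates 3 and 4 and P58S day 20 replicates 1, 2 and 4.

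Epsilon GSTs changed in both directions with age. GstE4 in P58S heads had 39.9, 38.3, 33 and 32.6 CPM at day 15, against 22.2, 22.9, 20.6 and 18.5 CPM at day 5, well apart (log2 0.59, SE 0.13, adjusted p = 0.0040). At day 20 its log2 fold change was 0.465 (adjusted p = 0.0205), with adjusted p values of 0.0508 and 0.0665 without P58S day 5 replicate 4 or P58S day 20 replicate 1. Without P58S day 5 replicate 3 the values of GstE4 were 0.56 and 0.43 (adjusted p = 0.0076 and 0.044). GstE6 in P58S heads had 65.3, 72.9, 70.2 and 61 CPM at day 15, against 43.8, 36.7, 43 and 46.6 CPM at day 5 (log2 0.51, SE 0.125, adjusted p = 0.0069, and 0.0092 without that replicate). GstE9 in P58S heads had 179, 161, 162 and 178 CPM at day 20, against 130, 124, 92.5 and 123 CPM at day 5 (log2 0.50, SE 0.11, adjusted p = 0.0036), and without P58S day 5 replicate 3 the value was 0.39 (adjusted p = 0.010).

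In WT heads other epsilon genes were called. GstE9 was not called there with age, though all its WT values of day 20, given above, lay over those of day 5. GstE6 was not called there either, and its WT values of days 15 and 5 overlapped. Since no interaction was called, a member called in P58S heads alone or in WT heads alone is not shown to age differently between the genotypes. GstE14 had 14.1, 10.7, 13.6 and 12.1 CPM at day 15, against 15.3, 19.3, 21.5 and 21.9 CPM at day 5 (log2 -0.81, SE 0.195, adjusted p = 0.0067), and at day 20 it fell by 0.625 (adjusted p = 0.036). The day 20 call rested on 6.13 CPM in replicate 1: without that library the value was -0.42 with an adjusted p of 0.11, and without WT day 5 replicates 2, 3 or 4 or WT day 20 replicate 3 the adjusted p was also over 0.05, in all 0.063 to 0.11. GstE7 had 18.8, 19.2, 16.3 and 15.7 CPM at day 15 and 17.3, 12.8, 21.4 and 18.6 CPM at day 20, against 8.57, 8.57, 13.3 and 10.6 CPM at day 5. Its log2 fold changes were 0.57 (adjusted p = 0.048) and 0.66 (adjusted p = 0.023), the first lost without any of 7 of its 8 libraries (kept without WT day 5 replicate 3) and the second lost without WT day 5 replicates 1 or 2 or WT day 20 replicates 3 or 4.

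GstE12 in WT heads had 400, 391, 391 and 377 CPM at day 15, against 474, 460, 469 and 415 CPM at day 5, and fell by 0.40 (adjusted p = 0.017). That call was lost without WT day 15 replicate 3 (adjusted p = 0.058) or replicate 4 (0.053). GstE8 had 17.7, 22.3, 26.1 and 18.2 CPM at day 20, against 11.6, 8.89, 10.2 and 16.2 CPM at day 5 (log2 0.77, SE 0.21, adjusted p = 0.015). Its adjusted p was 0.058, 0.062 and 0.059 without WT day 5 replicate 2, WT day 5 replicate 3 and WT day 20 replicate 3.

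In the smaller classes, the omega gene GstO1 in P58S heads had 15.2, 12.8, 18.1 and 15.9 CPM at day 20, against 9.15, 8.86, 7.75 and 4.15 CPM at day 5, without overlap and with a call kept in every fit (log2 0.97, SE 0.22, adjusted p = 0.0030). The theta gene GstT2 rose in P58S heads at day 20 (23.2, 12.1, 13.2 and 17.3 CPM, against 11.2, 11, 8.23 and 11.5 CPM at day 5; log2 0.60, adjusted p = 0.022). Without P58S day 5 replicate 3, P58S day 20 replicate 1 or P58S day 20 replicate 4 its adjusted p was 0.066, 0.11 and 0.075. In WT heads GstT2 fell at day 15 (9.16, 9.42, 7.87 and 6.46 CPM, against 13.8, 12.5, 11.1 and 11.1 CPM at day 5; log2 -0.71, adjusted p = 0.014), with an adjusted p of 0.059 without WT day 15 replicate 3.

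GstT4 in P58S heads had 97.2, 83.1, 79.2 and 58.8 CPM at day 15, against 55.7, 49.8, 44.1 and 36.4 CPM at day 5 (log2 0.59, adjusted p = 0.016). It was 0.55 (adjusted p = 0.030) without P58S day 5 replicate 3, and it lost its call without P58S day 5 replicate 4 (0.057) or day 15 replicate 1 (0.0695). GstZ2 in WT heads had 71.8, 58.6, 75 and 89.7 CPM at day 20, against 31.3, 40.9, 43.3 and 46.4 CPM at day 5 (log2 0.76, SE 0.19, adjusted p = 0.011), and its adjusted p was 0.052 without WT day 20 replicate 4.

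Markers of other cell types moved with age as well. In P58S heads 5 of 6 neuron markers were lower at day 15 than at day 5 and 3 of 6 at day 20, and 3 of 6 muscle markers were lower at both ages. In WT heads 4 of 6 muscle markers were lower at each later age. The enterocyte list summed to 254 to 924 CPM in P58S heads at day 20, against 880 to 2870 CPM at day 5, with 4 of 6 markers lower (median log2 -2.20), and the fat body list had at most 2 of 6 called at any age. Their part in the GST changes was not tested.

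GstE11 was lower in the libraries labelled KayKD than in Repo at both ages, and GstO3 at day 5. In these KayKD heads, whose whole-head kay counts do not show the glial knockdown, 2 of 31 members were called at day 5, both lower (3.58% of 9796 genes called, 1.82% lower), and 1 at day 15, also lower (1.25% called, 0.612% lower). The median over the members was 0.10 at day 5 and -0.06 at day 15. By class, delta GSTs had medians of 0.45 and 0.12 at days 5 and 15, epsilon GSTs 0.09 and -0.17, omega -0.13 and 0.06, theta -0.17 and -0.05, and zeta 0.71 and 0.48, and 2 of the 13 tested epsilon genes were above 0 at day 15.

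The epsilon gene GstE11 (2R 18503608 to 18505025) had 12.9, 13.4, 11.8 and 4.98 CPM in KayKD heads at day 5, against 24.6, 23.7, 32.9 and 19.3 CPM in Repo heads. At day 15 it had 10.4, 9.47, 7.02 and 8.24 CPM in KayKD heads, against 24.5, 21.2, 16.1 and 24.3 CPM in Repo heads. The groups were separate at both ages, and the log2 fold changes were -1.12 (SE 0.25, adjusted p = 0.0076) and -1.21 (SE 0.25, adjusted p = 0.0078) by edgeR. Both calls held under every alternative tried, leaving out each library included. These alternatives do not address the level of the Repo heads themselves. In the male heads of both VAP genotypes, without the driver, the median of GstE11 was 11.3 CPM. The 2 male head series were not compared by a test.

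In KayWT heads GstE11 overlapped Repo, with 23, 21.1, 28 and 23.1 CPM at day 5 and 29.6, 28.4, 22.7 and 22.2 CPM at day 15. KaySCR heads had 22.7, 15.2, 28.1 and 15.2 CPM at day 5 and 19.2, 27, 25.1 and 14.8 CPM at day 15, which overlapped Repo. Neither arm was called for GstE11 at either age, and KayKD lay below every library of the other 3 groups at both ages.

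The omega gene GstO3 had 35.7, 33.6, 33.6 and 43.1 CPM in KayKD heads at day 5, against 54.4, 79.9, 77.6 and 73.8 CPM in Repo heads (log2 -0.98, SE 0.17, adjusted p = 0.00083), and this call held under every alternative. At day 15 it had 27, 47.2, 41.4 and 31.2 CPM in KayKD heads, against 68, 68.5, 50.8 and 56 CPM in Repo heads. These groups were also separate, but the log2 fold change of -0.60 was not called by edgeR (adjusted p = 0.062). It was called by DESeq2 (-0.59, adjusted p = 0.032) and, without KayKD day 15 replicate 2, by edgeR (-0.73, adjusted p = 0.035).

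GstO3 was also the member called in KaySCR at day 5, 1 of 31 (2.6% of genes called, 1.27% lower), with 55.3, 39.4, 45.9 and 46.5 CPM in KaySCR heads, against the same Repo libraries (log2 -0.62, SE 0.17, adjusted p = 0.036). That call was lost in 6 of 8 leave-one-out fits (Repo replicates 2, 3 or 4 and KaySCR replicates 2, 3 or 4, adjusted p 0.051 to 0.16). In KayWT heads GstO3 had 43.5, 58, 70.6 and 57.2 CPM at day 5 and was not called. At day 15 KaySCR heads had 65.1, 53.3, 52.4 and 64.1 CPM and KayWT heads 61.3, 52.1, 53.9 and 49.9 CPM, which overlapped Repo in both arms. Since all 3 arms use the same Repo libraries, their day 5 values are not independent of each other.

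In KayWT heads 1 of 31 members was called at day 5 (5.59% of genes called, 3.01% higher), and it was GstD1 (3R 12367817 to 12369268). It had 292, 321, 349 and 337 CPM in KayWT heads, against 291, 257, 167 and 273 CPM in Repo heads (log2 0.46, SE 0.12, adjusted p = 0.0195 by edgeR). The groups were just separate, and Repo replicate 3 lay far below the other Repo libraries. Without it the log2 fold change was 0.345 with an adjusted p of 0.10, and without KayWT replicate 3 it was 0.42 with 0.058. GstZ1 (log2 1.49, adjusted p = 0.10) and GstE8 (1.06, adjusted p = 0.15) came next by edgeR. Without Repo replicate 1 the count of called members was 6, GstZ1 among them (log2 2.66, adjusted p = 0.0056). The share of all genes called in that fit is not given here. The class medians in KayWT heads at day 5 were 0.485 for delta, 0.21 for epsilon, 0.46 for omega, 0.04 for theta and 0.74 for zeta, beside 0.02 for all genes, and at day 15 they were 0.03, 0.02, 0.01, 0.05 and 0.485. In KaySCR heads at day 5 they were 0.06, 0.15, 0.20, -0.21 and 0.73 in the same order.

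At day 15 no member was called in KayWT heads (1.48% of genes called; 4 members and 9.69% of all genes had an unadjusted p under 0.05 by edgeR, and DESeq2 called 0) or in KaySCR heads (0.868% of genes called; 1 member and 8.13% of all genes had an unadjusted p under 0.05, and DESeq2 called 0). The smallest p in KayWT belonged to GstT4 (log2 -0.62, adjusted p = 0.34), GstE1 (-0.40, adjusted p = 0.36) and GstD1 (0.28, adjusted p = 0.40). In KaySCR they belonged to GstD9 (-0.47, adjusted p = 0.35), GstD1 (0.23, adjusted p = 0.66) and GstT4 (-0.46, adjusted p = 0.69). Other members near a call were GstE14 in KayKD at day 5 (-0.76, adjusted p = 0.11), GstE4 in KayKD at day 15 (-0.59, adjusted p = 0.080), and GstE4 (0.54, adjusted p = 0.083) and GstD9 (-0.45, adjusted p = 0.19) in KaySCR at day 5.

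Cell type markers also differed between the arms. In KayKD heads at day 5 the summed fat body markers were 8710 to 9460 CPM, against 5400 to 7570 CPM in Repo heads, with 3 of 6 tested markers higher, and 3 of 6 muscle markers were lower (median log2 -0.38). No glia marker was called there, and the summed glia markers overlapped (4030 to 6260 CPM in KayKD, against 4700 to 6630 CPM in Repo). At day 15, 1 of 6 fat body markers was higher, and the sums overlapped (5200 to 8600 CPM in KayKD, against 7880 to 8250 CPM in Repo). In KayWT heads at day 5, 2 of 6 fat body markers were higher and 2 of 6 muscle markers lower. The part of cell makeup in the GST values was not tested.

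**Figure D4:**
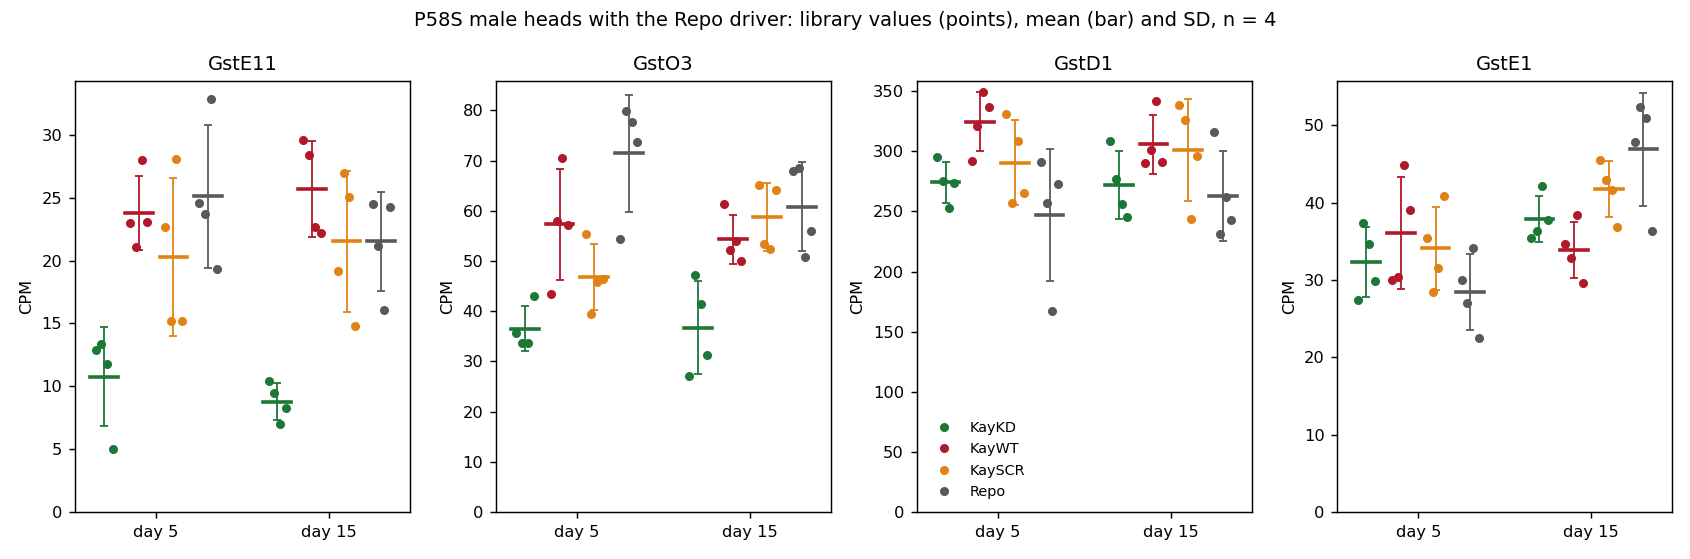
CPM of GstE11, GstO3, GstD1 and GstE1 in male P58S heads of the kayak series at days 5 and 15, in the order KayKD, KayWT, KaySCR and Repo; points are libraries, bars mark the mean and error bars the SD (n = 4). GstE11 in KayKD lies below every library of the other groups at both days.

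Few members changed with age in the kayak series. In KayKD heads 1 of 31 was called at day 15 against day 5 (5.74% of genes called, 2.86% lower): GstE2, with 13.2, 17.6, 27.4 and 19.3 CPM at day 15, against 24.7, 40.8, 37.1 and 43.1 CPM at day 5 (log2 -0.85, SE 0.22, adjusted p = 0.018). The groups overlap, and the adjusted p was 0.0535 to 0.0641 without KayKD day 5 replicate 2 or KayKD day 15 replicates 1, 2 or 4. GstO2 (0.66, adjusted p = 0.056) and GstD2 (1.62, adjusted p = 0.073) came next. Epsilon GSTs had a median of -0.17, with 4 of 13 above 0.

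In KayWT heads 1 of 31 was called (1.59% of genes called, 0.98% lower): GstE12, with 425, 422, 467 and 394 CPM at day 15, against 542, 561, 472 and 538 CPM at day 5 (log2 -0.39, SE 0.10, adjusted p = 0.027), a call kept only without KayWT day 5 replicate 3 or KayWT day 15 replicate 3 and otherwise at 0.054 to 0.094. GstD9 (-0.59, adjusted p = 0.085) and GstD3 (-1.08, adjusted p = 0.16) came next. In KaySCR heads none was called (1.67% of genes called; 2 members and 10.4% of all genes had an unadjusted p under 0.05 by edgeR). GstE2 was nearest (log2 -0.65, adjusted p = 0.12), and DESeq2 called it (adjusted p = 0.048), followed by GstE7 (0.70, adjusted p = 0.46) and GstD9 (-0.35, adjusted p = 0.52).

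In Repo heads 2 of 31 were called (6.07% of genes called, 2.75% higher). GstE1 had 47.8, 52.4, 51 and 36.4 CPM at day 15, against 30, 27, 34.2 and 22.5 CPM at day 5 (log2 0.64, SE 0.17, adjusted p = 0.018). GstD2 had 7.76, 12.8, 13.1 and 9.69 CPM at day 15, against 2.83, 2.41, 0.621 and 5.85 CPM at day 5 (log2 1.80, SE 0.56, adjusted p = 0.047). Both sets of groups were separate, but GstE1 was lost without Repo day 5 replicates 2 or 4 or Repo day 15 replicates 2 or 3 (adjusted p 0.062 to 0.074), and GstD2 was kept only without Repo day 5 replicate 4 or Repo day 15 replicate 1 (otherwise 0.066 to 0.14). GstE14 came next (-0.70, adjusted p = 0.11). All 6 muscle markers were lower in these heads at day 15, and the part of muscle in these values was not tested.

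Tests of whether an arm's difference from Repo changed between the days called no member in KayKD (0.153% of genes called), KayWT (0.112%) or KaySCR (0.0612%). By edgeR 2, 1 and 3 members had an unadjusted p under 0.05 in those arms, beside 10.1%, 6.58% and 5.79% of all genes, and DESeq2 called 0 in each. The members with the smallest p were GstD9 (0.78, adjusted p = 0.22), GstE4 (-0.69, adjusted p = 0.28) and GstE13 (-1.48, adjusted p = 0.545) in KayKD. In KayWT they were GstE1 (-0.80, adjusted p = 0.26), GstE7 (-0.97, adjusted p = 0.765) and GstE8 (-1.10, adjusted p = 0.80), and in KaySCR GstO3 (0.60, adjusted p = 0.80), GstE4 (-0.52) and GstD2 (-1.62, adjusted p = 0.84).

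In female heads no GST was called between genotypes or ages by limma on log2(CPM + 1) over 9640 genes. For P58S against WT at day 5, 0.0519% of all genes were called, and 5 of 30 members had an unadjusted p under 0.05. At day 20 the share was 0.0311% with 3 such members. Between days 20 and 5 it was 0.27% with 0 in P58S heads and 0.975% with 3 in WT heads. The difference between genotypes in the age effect gave 0% and 0. The share of all genes with an unadjusted p under 0.05 was 14.5%, 5.1%, 3.78%, 15.3% and 5.43% in the same order. edgeR on the whole reads recovered from the table also called 0 members in each, with 1, 2, 1, 2 and 0 under an unadjusted p of 0.05, beside 7.32%, 4.88%, 4.22%, 12.4% and 4.73% of all genes.

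GstD1 came closest. It had 386, 479, 532 and 486 CPM in P58S female heads at day 5, against 221, 94.7, 329 and 194 CPM in WT female heads, groups that do not overlap. The log2 difference was 1.28 (SE 0.29, adjusted p = 0.12 by limma), but the median over all genes was itself 0.65 in this comparison, whose WT group holds both shallow libraries. edgeR with TMM scaling on recovered reads gave 1.16 (adjusted p = 0.088), beside an all-gene median of 0.19. With each library centred on its median the limma value was 0.16 (adjusted p = 0.94), beside an all-gene median of -0.47, and with both WT libraries under 1 M reads left out it was 0.79 (adjusted p = 0.40). Without WT replicate 1, the deepest library of its group (3.65 M reads), it was 1.35 with an adjusted p of 0.027 by limma. Both shallow libraries then stayed among the WT heads. The summed ovary markers were 39.7 to 231 CPM in P58S heads and 549 to 1200 CPM in WT heads at day 5, and their part in this difference was not tested. At day 20 GstD1 had 570, 502, 507 and 613 CPM in P58S heads, against 196, 318, 408 and 356 CPM in WT heads, again apart (0.82, SE 0.29, adjusted p = 0.76, all-gene median 0.16). edgeR on recovered reads gave 0.88 at day 20 (adjusted p = 0.35).

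Other members with the smallest p in female heads were GstD3 (2.50, adjusted p = 0.285) and GstT2 (2.27, adjusted p = 0.33) at day 5, where GstD3 was 0.34 (adjusted p = 0.96) without both shallow libraries, and GstD11 (2.08, adjusted p = 0.96) and GstE14 (2.28, adjusted p = 0.96) at day 20. In WT heads GstE9 had 201, 267, 214 and 224 CPM at day 20, against 125, 89.7, 159 and 127 CPM at day 5 (0.87, adjusted p = 0.15), without overlap. The all-gene median of that comparison was 0.35, and with median-centred libraries the GstE9 value turned to -0.23, beside an all-gene median of -0.755. GstO3 (2.13, adjusted p = 0.255) came next and was 0.11 without both shallow libraries. In P58S heads GstE9 had 315, 228, 184 and 167 CPM at day 20, against 136, 121, 201 and 151 CPM at day 5, which overlapped (0.53, adjusted p = 1.0). In male P58S heads the same gene was higher at day 20 than at day 5, as given above. GstE12 (0.32) and GstD2 (1.32) were the next members by p in P58S heads with age, and GstO3 (-1.98), GstD3 (-1.81) and GstD9 (-1.52) in the test of the genotype difference in age effect, each with an adjusted p of 0.82, beside an all-gene median of -0.385. Without both shallow libraries GstO3 turned to 0.035 and GstD3 to 0.35, and GstD9 was -0.37. The sexes were in separate tables, and a difference between them was not tested.

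In female guts no member was called either (limma, 9036 genes). For P58S against WT at day 5, 0.133% of all genes were called and 3 of 31 members had an unadjusted p under 0.05, and at day 20 the values were 0.365% and 4. For day 20 against day 5 they were 0.299% and 1 in P58S guts and 0.21% and 8 in WT guts, and for the difference between genotypes in the age effect 0% and 2. The share of all genes with an unadjusted p under 0.05 was 2.93%, 7.61%, 11.1%, 10.2% and 3.05% in the same order. edgeR on recovered reads called 0 in each, with 3, 3, 1, 4 and 2 of 30 members under an unadjusted p of 0.05, beside 2.86%, 7.3%, 10.5%, 8.8% and 3.31% of all genes. The median over members at day 5 was -0.14, beside -0.02 for all genes, and at day 20 -0.04, beside -0.06.

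The delta genes GstD9 and GstD1 were lower in P58S guts at day 5 without passing the test. GstD9 had 22.6, 17.6, 39.9 and 19.1 CPM in P58S guts at day 5, against 30.1, 74.6, 64.2 and 77.9 CPM in WT guts, overlapping through 1 library of each genotype (-1.27, SE 0.36, adjusted p = 0.41). GstD1 had 505, 508, 585 and 509 CPM in P58S guts, against 668, 874, 663 and 945 CPM in WT guts, without overlap (-0.56, SE 0.17, adjusted p = 0.50). GstD2 followed (-1.89, adjusted p = 1.0). The 10 tested delta genes had a median of -0.51 with 2 above 0, and the 11 tested epsilon genes one of 0.09 with 6 above 0. At day 20 GstD1 had 571, 518, 662 and 663 CPM in P58S guts and 679, 560, 620 and 908 CPM in WT guts, which overlapped, and the smallest p belonged to GstT1 (1.33, adjusted p = 0.59), GstE8 (1.09, adjusted p = 0.61) and GstD3 (1.67, adjusted p = 0.61).

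With age, GstD9 in WT guts had 22.7, 25.8, 20.9 and 47.6 CPM at day 20, against 30.1, 74.6, 64.2 and 77.9 CPM at day 5 (-1.04, adjusted p = 0.295), and GstS1 had 43.6, 22.8, 44.5 and 26.8 CPM at day 20, against 49.5, 45.5, 66.2 and 82.3 CPM at day 5 (-0.82, adjusted p = 0.295). GstO2 came next (0.48, adjusted p = 0.35), and it had the smallest p in P58S guts (0.63, adjusted p = 0.12), before GstE12 (0.30, adjusted p = 0.50) and GstT3 (0.51, adjusted p = 0.57). Delta GSTs had a median of -0.37 in WT guts with age and 0.20 in P58S guts. The interaction values of GstD9 (1.51), GstS1 (0.98) and GstD2 (2.05) each had an adjusted p of 0.999. The summed ovary markers fell with age in the guts, to 124 to 331 CPM at day 20 in P58S guts, against 545 to 3880 CPM at day 5, and to 157 to 652 CPM in WT guts, against 822 to 2060 CPM. Their part in the gut values was not tested.

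**Figure D5:**
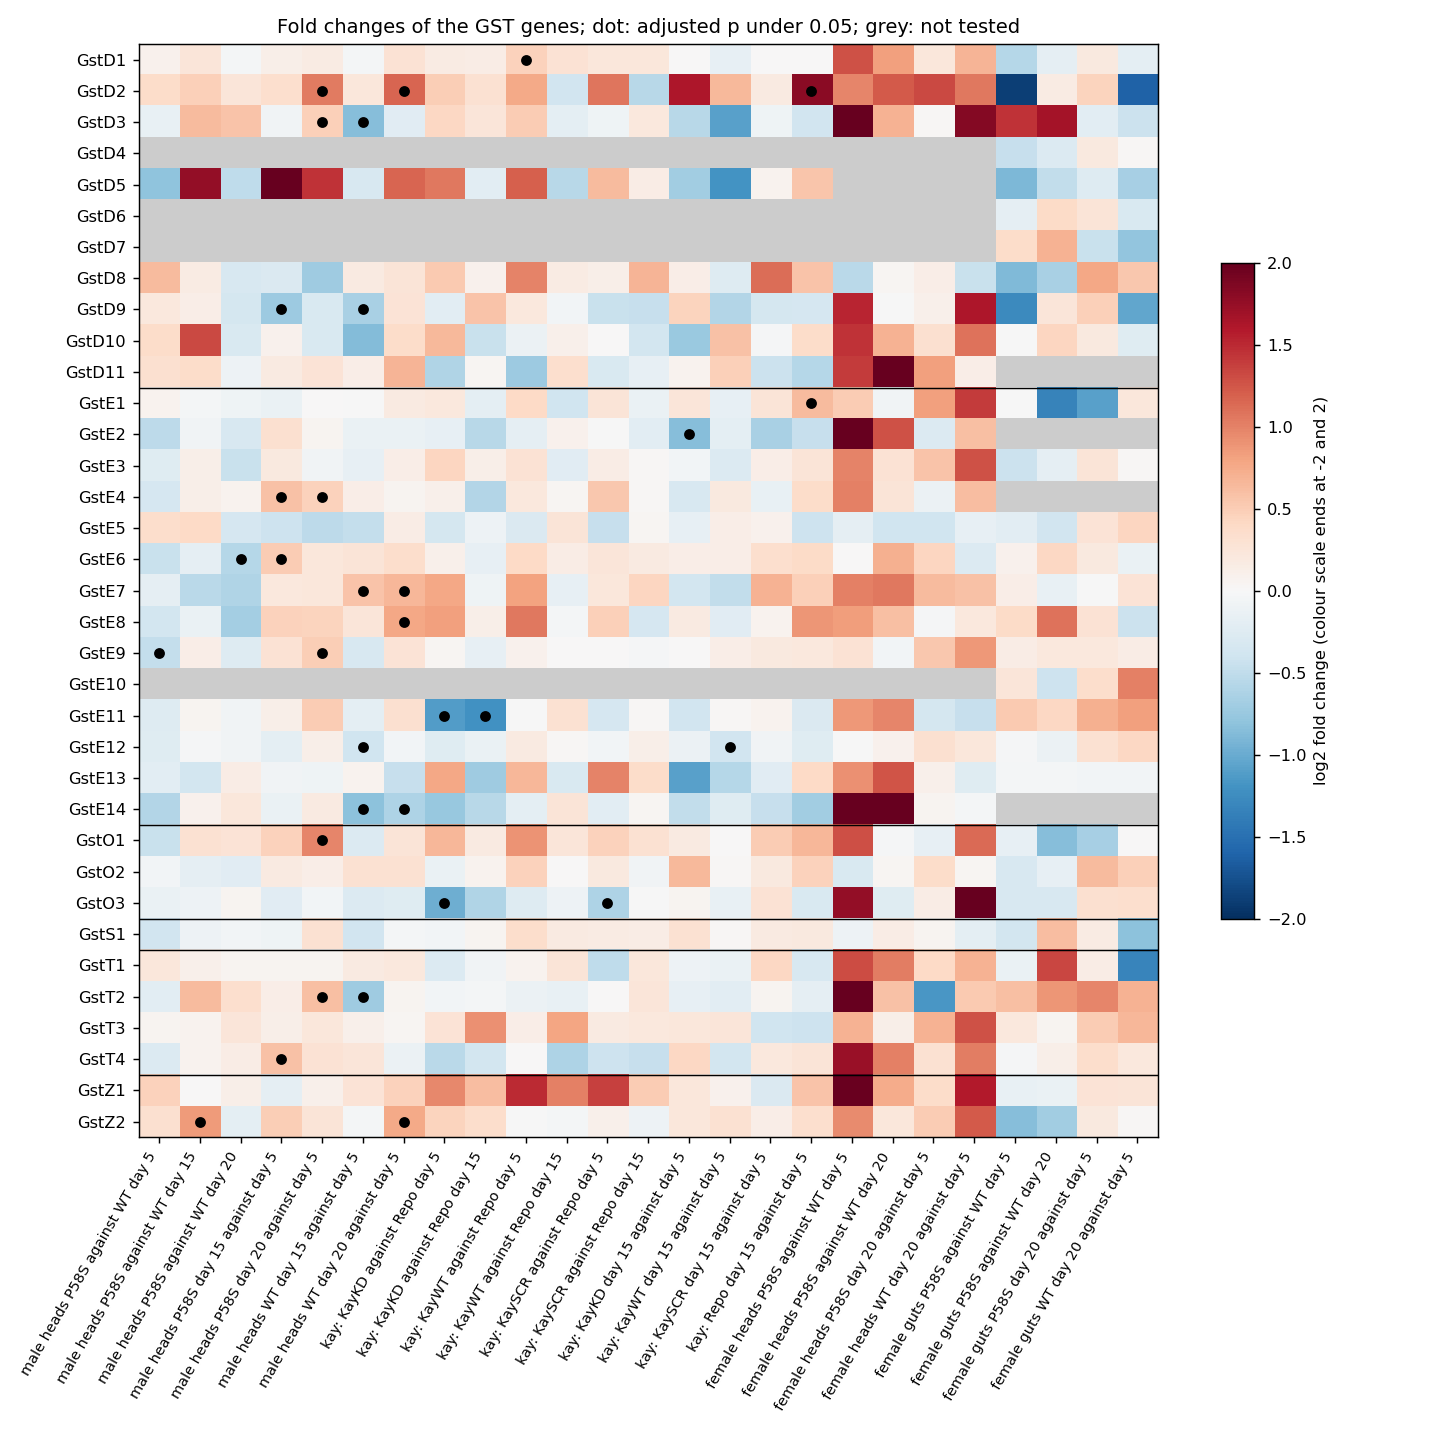
Log2 differences of the 35 GST genes (rows, by class) in 25 comparisons (columns), with colour for size and direction, dots where the adjusted p was under 0.05 and grey where a gene was not tested. The 33 dots fall in the male head columns (24) and the kayak series (9), and none in the female columns.

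In male heads of the VAP genotypes 10.6% to 16% of all genes were called per age comparison. The share of all genes called at least once over all 25 comparisons is not given here. Over these 25 comparisons 19 members were called at least once, in 33 calls. Of these, 13 calls were kept in every alternative tried: GstD3, GstD9 and GstE14 in WT heads at day 15, GstD2 in WT heads at day 20, GstD9, GstE4 and GstE6 in P58S heads at day 15, GstO1, GstE9 and GstD2 in P58S heads at day 20, GstO3 and GstE11 in KayKD heads at day 5, and GstE11 in KayKD heads at day 15. No call between P58S and WT was among them.

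Genes that work beside the GSTs were followed as lists, whose counts stand beside the same shares of all genes called. For P58S against WT male heads these were 1.96%, 1.02% and 1.76% at days 5, 15 and 20, and with age 13.6% and 16% in P58S heads and 12.4% and 10.6% in WT heads. Without P58S day 5 replicate 3 the 4 list genes called between genotypes at day 5 and the 8 called at day 20 against day 5 in P58S heads were kept, and 10 of 14 were kept at day 15 against day 5. The 4 lost were gfzf (adjusted p = 0.053), SelR (0.051), Jheh1 (0.066) and Mdr49 (0.16). The cnc and Keap1 list (cnc, its partner maf-S, its inhibitor Keap1 and ref(2)P, the fly p62 adaptor of selective autophagy) had 0 of 4 called between P58S and WT male heads at any age by edgeR, with medians of 0.04, -0.07 and -0.15. With age, 2 of 4 were higher in WT heads at each later day: cnc rose by 0.26 and 0.295 on the log2 scale and ref(2)P by 0.83 and 0.56. In P58S heads ref(2)P rose by 0.63 at day 15 and cnc by 0.21 at day 20. In Repo heads both rose at day 15 (0.37 for cnc and 0.60 for ref(2)P).

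Among glutathione synthesis genes, Gclm, the modifier subunit of glutamate cysteine ligase, which makes the first step of glutathione synthesis, was lower in P58S heads at day 15. It averaged 41.8 ± 4.21 CPM in P58S heads and 61.7 ± 9.04 in WT heads (SD, n = 4 each; log2 -0.545, adjusted p = 0.028). It was the 1 called gene of 4 tested in that list, and it had risen in WT heads at that day (0.63 against day 5, adjusted p = 0.0019). In the list of other glutathione-linked enzymes, 0 of 9 were called between P58S and WT at any age. With age, thioredoxin reductase Trxr1 fell at day 15 in P58S and WT heads (-0.50 and -0.62), and PHGPx, a glutathione peroxidase, rose at day 20 in P58S heads (0.485). Other called members of that list were gfzf at day 15 (0.85 in P58S and 0.81 in WT heads), the lysosomal thiol reductase GILT1 (0.55 at day 15 and 0.505 at day 20 in P58S, 0.45 at day 20 in WT) and the elongation factor eEF1gamma, which carries a GST-like domain (0.33 in P58S and 0.25 in WT heads at day 20). In the synthesis list the glutamyl transferase gene CG4829 fell at day 20 in P58S (-0.64) and WT heads (-0.63).

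Cytochrome P450 genes, which often act before GSTs on foreign compounds, included a larger genotype difference than any tested GST in male heads. Of 21 tested, 4 were called at day 5 (2 higher, 2 lower, beside 1.96% of all genes called), 3 at day 15 (1 higher, 2 lower, beside 1.02%) and 4 at day 20 (1 higher, 3 lower, beside 1.76%). Cyp6a14 averaged 1.51 ± 0.80 CPM in P58S heads and 18.5 ± 3.32 in WT heads at day 5 (SD, n = 4 each; log2 -3.58, adjusted p = 2.66e-08), and Cyp12a4 12.4 ± 3.86 and 5.59 ± 1.39 CPM (log2 1.10, adjusted p = 0.021). Cyp6a2 had no read in the 4 P58S heads of day 5, against 0.745 to 5.42 CPM in WT heads. In guts Cyp12a4 averaged 259 CPM in P58S and 110 CPM in WT at day 5 (log2 1.23, adjusted p = 0.00072 by limma) and was also called at day 20 (0.91, adjusted p = 0.0096). Cyp6a2 was lower in P58S guts at day 5, with at most 0.156 CPM, against 2.85 to 16.1 CPM in WT guts. Cyp6w1 was higher in P58S male heads at day 5 (0.76) and Cyp6a17 lower at day 20 (-0.59).

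With age, 5 P450 genes rose and 1 fell in P58S heads at day 15. Cyp6a13 (0.87), Cyp6a20 (0.90), Cyp6a22 (0.90), Cyp6g1 (0.34) and Cyp9f2 (0.32) rose, and Cyp6w1 fell by 0.31. At day 20 Cyp6a13 rose (0.97). In WT heads Cyp6g1 rose (0.40) and Cyp6a17 fell (-0.655) at day 15, and Cyp6a13 (0.98), Cyp6a22 (0.69) and Cyp6w1 (0.35) rose at day 20. In female WT heads Cyp6a13 was higher at day 20 (4.08, adjusted p = 0.0091 by limma), a comparison that rests on both shallow libraries.

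Antioxidant genes had 0 of 13 called between P58S and WT at day 5, MsrA lower at day 15 (-1.32, adjusted p = 0.021) and the peroxiredoxin Prx6c higher at day 20 (0.80, adjusted p = 0.041). MsrA ranged from 40.3 to 222 CPM in the WT heads of day 15, against 45 to 51.4 CPM in P58S heads. In guts Prx6c was higher in P58S at day 20 (1.58, adjusted p = 0.011). With age, Trx2 rose at day 15 in P58S (0.43) and WT heads (0.36), SelR at day 15 (0.54) and Prx6b at day 20 (0.81) in P58S heads, and MsrA at day 15 in WT heads (0.99). In female heads MsrA was higher in WT at day 20 than at day 5 (2.46, adjusted p = 0.026 by limma). That comparison rests on both shallow libraries and had an all-gene median of 0.35. Of the 17 tested conjugation and efflux genes, Ugt35B1 was higher (0.76, adjusted p = 0.020) and Mrp5 lower (-0.73, adjusted p = 0.020) at day 15, and Mrp5 was lower at day 20 (-1.31, adjusted p = 3.86e-05). With age, Jheh1 rose (0.44) and Mdr49 fell (-0.56) at day 15 in P58S heads, Mrp5 fell at day 20 in P58S heads (-0.88), Ugt35B1 fell at day 15 in WT heads (-1.18), and St1 (0.59) and Mrp4 (1.09) rose at day 20 in WT heads.

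In the kayak series at day 5 the mitochondrial peroxiredoxin Prx3 was lower in all 3 arms (-0.53 in KayKD, -0.52 in KayWT and -0.59 in KaySCR) and Cyp6g1 higher in all 3 (0.76, 0.94 and 0.56), against the same Repo libraries. Cyp6w1 was lower in KayWT (-1.45) and KaySCR (-1.34) and Cyp6a20 higher (1.24 and 1.44), with neither called in KayKD, and at day 15 both were again called in KayWT (-1.18 and 1.48) and KaySCR (-1.05 and 1.42). Cyp9b2 was higher in KayKD (0.63) and KayWT (0.78) and so was Ugt37B1 (1.54 and 1.88), PHGPx was higher in KayWT (0.525), and Cyp309a1 was lower in KayWT at day 15 (-1.16). Prx3, Cyp6g1, Cyp9b2, Ugt37B1 and PHGPx were called in no arm at day 15. In the shared Repo heads Cyp6g1 and Ugt37B1 were lower at day 5 than at day 15 (day 15 against day 5, 0.74 and 1.85). The part of the Repo day 5 level in the day 5 differences was not tested. No gene of the cnc and Keap1 list was called between any arm and Repo.

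Between days 15 and 5, KayKD heads had lower Mgstl, a microsomal GST-like gene (-0.81), and Sod2 (-0.71), and higher eEF1gamma (0.41) and cnc (0.34). Mdr65 was lower in KayWT heads (-1.18) and Prx6b higher in KaySCR heads (0.77). In Repo heads eEF1gamma (0.36), Cyp6g1 (0.74), Cyp28d1 (0.87), Cyp309a1 (1.19) and Ugt37B1 (1.85) were higher at day 15.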

How the data were processed

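Polyadenylated RNA of fly heads and guts was sequenced at transcript 3′ ends, with a version 2 3′ kit for males and a QuantSeq 3′ forward kit for females, per the labels' protocols. The genome build was dm6, per the submitters' processing notes; no source used here names the aligner, the counting program or its strand setting. The authors' deposited male table holds raw counts of reads for each feature. The 114 spike-ins and 6052 other features were left out, the latter with 0.1695% to 0.2596% of reads. The female deposited tables are named CPM but hold log2 values with a constant floor (-0.49 in heads, -1.34 in guts), whereas plain CPM had been planned for; they were raised to linear CPM, which gave whole reads within 0.1 read for 100% of 136582 head and 148349 gut values. Male levels are CPM over gene reads.

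Counts were tested with edgeR 4.0.16 (TMM scaling, filterByExpr, quasi-likelihood test, 1 mean per group over the 24 libraries of the VAP genotypes or the 32 of the kayak series). Female values were tested with limma 3.58.1 on log2(CPM + 1), over genes that reached 1 CPM in 4 or more libraries. A female fold change is on that scale, where values of low genes depend on the added 1 and on libraries without a read. By edgeR on recovered reads GstD3 in female heads at day 5 was 1.16, less than the limma value given above. P-values were Benjamini-Hochberg adjusted over all genes, and calls are at an adjusted p under 0.05. R 4.3.3 and Python 3.11.15 were used. Depth is given in the report. No pair of replicate libraries differed by as little as sampling noise (chi-square per degree of freedom at least 3.37). Scripts were tested on simulated data.

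Alternatives were DESeq2 1.42.0, RLE scaling, no filter, other pseudocounts, median-centred libraries, edgeR on recovered female reads, a replicate block and leaving out each library. Leaving out both female heads under 1 M reads was chosen after seeing the data. The members, gene lists and tests were chosen with earlier results of these data known. Named genes are the called members, the most abundant member of each class, the 3 members with the smallest p per comparison, and called genes of the lists. Positions are from the Ensembl BDGP6 annotation, whose coordinates are those of dm6. No sequences or promoter motifs were analysed here.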

Additional observations from a re-analysis of the deposited data

Results flagged for a closer look

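Of 61 sets of 4 libraries, each for a called gene and group, 2 held a library whose gap to its nearest neighbour, divided by the range of the set, exceeded Dixon's critical value for 4 values; chance gives this in about 1 in 20 sets. GstD3 had 22.9 CPM in male P58S heads of day 20 replicate 3, against 32.9 to 33.6 CPM in the other 3 libraries. GstT2 had 8.23 CPM in male P58S heads of day 5 replicate 3, against 11 to 11.5 CPM in the other 3. The second library is the one whose marker sums stood apart, highest of its group in every list but enterocyte.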

How the results depend on the processing

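Of the 33 calls, 13 were kept in every alternative, 20 were lost without at least 1 library, and 0 changed sign. RLE scaling kept 33, DESeq2 32, no filter 28 and the replicate block 30. Replicate numbers pair no samples by the labels, and the mean correlation of same-numbered libraries was -0.017, -0.0143, -0.00271 and 0.00898 in male heads, the kayak series, female heads and guts, so the block is given only here. With it, 2 members were called for P58S against WT at day 15 (GstD3 added), 0 for KaySCR against Repo at day 5 and 1 for Repo with age. DESeq2 called 2 for P58S against WT at day 5, 3 at day 15, 1 for the day 15 minus day 5 interaction, 4 for KayKD against Repo at day 15, and 3 in KayKD, 2 in KayWT and 1 in KaySCR with age. Without the filter 0 were called for KaySCR at day 5 and for KayWT with age. The shares of all genes called under these settings are not given here, so shifts of members are not set against shifts of all genes. The cause of these shifts was not tested.

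Leaving out 1 library at a time, the counts for P58S against WT ran from 0 to 1 at days 5 and 15 and from 0 to 2 at day 20. With age they ran from 3 to 5 (day 15) and 3 to 7 (day 20) in P58S heads, and from 3 to 7 and 2 to 5 in WT heads. Against Repo they ran from 2 to 3 and 1 to 2 in KayKD (days 5 and 15), 0 to 6 in KayWT and 0 to 2 in KaySCR at day 5. With age they ran from 0 to 1 in KayKD and KayWT and 0 to 2 in Repo, and in female heads at day 5 from 0 to 1. The share of all genes called in each of these fits is not given here.

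In female heads, median centring turned the age differences of WT heads to -0.231 for GstE9 and -0.415 for GstD1. Without both shallow libraries the interaction values turned to 0.0347 for GstO3 and 0.354 for GstD3 by limma, and to 0.161 and 0.0465 by edgeR. All-gene medians there were 0.65, 0.16 and 0.35 (P58S against WT at days 5 and 20, and WT with age), so female head differences are read against those. Depth limits the female heads and the rarer delta genes.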

Other observations

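GST and P450 levels differed between both male head series, which were not compared by a test because every fly of the second series carries the Repo driver. Repo heads of day 5 carry P58S, yet GstD1 averaged 247 ± 55.2 CPM in Repo heads, against 431 ± 63.1 CPM in P58S heads without the driver (SD, n = 4 each). GstE11 averaged 25.1 ± 5.68 CPM in Repo heads, 8.93 ± 3.59 CPM in P58S heads and 10.9 ± 2.05 CPM in WT heads, and the level of GstE11 in KayKD heads, 10.8 ± 3.93 CPM, lay within the range of P58S heads for 3 of 4 libraries. Driver, genetic background and library batch cannot be told apart here.

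Cyp6a2, a P450 enzyme, had no read in P58S heads of day 5 and averaged 11 ± 4 CPM in Repo heads, which also carry P58S, and 3.39 ± 1.99 CPM in WT heads. Cyp6a14 averaged 30.5 ± 8.93 CPM in Repo heads, 1.51 ± 0.80 CPM in P58S heads and 18.5 ± 3.32 CPM in WT heads of that day. The omega GST gene se, which the symbol rule does not take in, averaged 27 to 31.6 CPM over the groups of male heads and at most 1.35 CPM over those of guts.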
